A study of Mus musculus with 6 samples.

Results

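The small leucine-rich proteoglycans are secreted matrix proteins built on repeats of a leucine-rich motif, and 10 of their genes (Dcn, Bgn, Aspn, Fmod, Lum, Prelp, Kera, Omd, Ogn and Epyc) were described among the 22180 genes measured here. Members were taken by gene symbol from probe sets that list a single gene, with the probe set of the highest mean over all arrays where a gene had several, and all 10 were found. The cells were embryonic fibroblasts of 129SV mice, taken from the dorsal body wall at E14.5, and all embryos were Ebf2(GFP)/+, so both groups carried the GFP reporter at 1 Ebf2 allele. All were sorted for the surface receptor PDGFRα, and they were then divided into Ebf2(GFP)+:Pdgfra+ cells, called GFP+ below, and Ebf2(GFP)-:Pdgfra+ cells, called GFP- below. Each group had 3 Affymetrix arrays. The comparison asks how these PDGFRα-positive cells differ by expression of the Ebf2 reporter, which the series title describes as a marker of precursors of brown and beige fat cells. GFP stands for expression of the Ebf2 locus, and the labels name no further marker by which the dispersed cells were selected.

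Small leucine-rich proteoglycans bind collagen fibrils and are known to set fibril diameter and spacing, and several also bind growth factors. They are grouped by the spacing of their amino-terminal cysteines and by gene structure: class I holds Dcn, Bgn and Aspn, class II holds Fmod, Lum, Prelp, Kera and Omd, and class III holds Ogn and Epyc. Class I proteins such as decorin and biglycan carry chondroitin or dermatan sulfate chains, and lumican, keratocan, fibromodulin and osteoadherin (Omd) can carry keratan sulfate. Most of the genes lie in clusters in the mouse genome. By the RefSeq gene order of GRCm38.p6, Dcn, Lum, Kera and Epyc follow one another on chromosome 10, Ecm2, Aspn, Omd and Ogn on chromosome 13, and Optc, Prelp and Fmod on chromosome 1, while Bgn stands alone on chromosome X.

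The genes did not all change together. Of the 10 members, 4 were lower in GFP+ cells (Epyc, Omd, Fmod and Lum) and 0 were higher, by limma's test with p-values adjusted over all 22180 genes (Benjamini-Hochberg) and a threshold of 0.05. The same test called 6.49% of all genes, 3.84% lower and 2.65% higher. Of all the calls, 40.9% were higher, or 53.7% where each array was centred on the median of its genes, a setting under which the same 4 members were lower. An unadjusted p under 0.05, which 3927 of the 22180 genes had, was also found for Aspn and Ogn, both with higher values in GFP+ cells. The median log2 change of the members was -0.15, against 0.02 for all genes tested. Member changes ran from -1.14 to 0.28 on the log2 scale. With the replicate number as a block, which uses the pairing described under the processing, Aspn also passed, giving 1 higher and 4 lower members where 10% of all genes passed (4.55% higher and 5.49% lower).

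Genes that passed lay beside genes that did not in the clusters, and promoters are shown for 1 pair of neighbours on chromosome 10 and 1 on chromosome 13: Epyc, which fell, with its neighbour Kera, which did not pass, and Omd, which fell, with its neighbour Ogn, which did not pass. Each sequence is the RefSeq promoter of GRCm38.p6, from 250 bases before to 50 bases after the gene's start, 5′ to 3′ on the gene's strand. Capitals mark a SOX core (AACAAT, or ATTGTT on the other strand) or a TATA box (TATAAA, or TTTATA on the other strand).
Epyc, chr10:97643818-97644117, plus strand: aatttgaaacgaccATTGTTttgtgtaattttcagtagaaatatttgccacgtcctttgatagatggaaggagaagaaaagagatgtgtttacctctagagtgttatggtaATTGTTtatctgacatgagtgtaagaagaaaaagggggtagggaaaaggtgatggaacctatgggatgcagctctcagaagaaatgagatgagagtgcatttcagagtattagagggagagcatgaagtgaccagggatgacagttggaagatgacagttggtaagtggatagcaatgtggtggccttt
Kera, chr10:97606955-97607254, plus strand: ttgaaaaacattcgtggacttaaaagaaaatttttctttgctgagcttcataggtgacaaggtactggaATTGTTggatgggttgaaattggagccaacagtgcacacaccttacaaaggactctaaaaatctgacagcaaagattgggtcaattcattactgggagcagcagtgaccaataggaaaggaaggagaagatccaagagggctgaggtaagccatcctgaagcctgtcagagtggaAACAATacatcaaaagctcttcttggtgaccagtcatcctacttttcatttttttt
Omd, chr13:49582212-49582511, plus strand: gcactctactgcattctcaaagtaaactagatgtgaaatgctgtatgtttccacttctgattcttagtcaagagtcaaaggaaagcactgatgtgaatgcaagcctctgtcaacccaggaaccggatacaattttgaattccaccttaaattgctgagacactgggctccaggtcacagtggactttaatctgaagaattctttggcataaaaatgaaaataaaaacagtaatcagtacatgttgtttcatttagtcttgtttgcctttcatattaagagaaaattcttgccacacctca
Ogn, chr13:49607765-49608064, plus strand: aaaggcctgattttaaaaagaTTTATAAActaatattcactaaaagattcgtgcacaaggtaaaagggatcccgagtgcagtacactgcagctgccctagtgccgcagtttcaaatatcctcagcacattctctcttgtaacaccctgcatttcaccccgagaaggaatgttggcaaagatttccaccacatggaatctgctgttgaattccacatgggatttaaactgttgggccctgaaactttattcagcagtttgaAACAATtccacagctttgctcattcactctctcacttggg
The Epyc window held 2 SOX cores and the Kera window held 2, and the window of a further Epyc start, not printed here, held 3. No SOX core and no TATA box was found in the Omd window, and the Ogn window held 1 SOX core and 2 overlapping TATA box matches on opposite strands. A promoter sequence was matched for 8 of the 10 members (9 windows), and 5 of those 8 genes held a SOX core. They were Aspn, Prelp, Kera, Ogn and Epyc, of which only Epyc was called, while the windows of the called Omd and Fmod held none. A TATA box was found for 2 of the 8 genes. These counts are by gene, and the shares that follow are by window. The SOX core and TATA box are rich in A and T, and the shares were not matched for base content. The GC share was 31% for Aspn, 41% for Kera, 42.3% for Ogn, 55.3% for Prelp, and 40.3% and 32.3% for the Epyc starts. For the windows without a SOX core it was 37.7% (Omd), 51% (Fmod) and 63.7% (Bgn). Whether SOX cores were more frequent than in windows of like base content was not tested. Among all 32851 promoter windows of this length, 10.7% held a SOX core, 13.6% a TATA box and 13.7% an EBF core, written CCCNNGGG, which reads the same on both strands. An EBF core was found in 0 of the 9 windows of these 8 members. As 13.7% of all windows held one, 9 windows are too few for 0 to stand apart from that share. Among other genes of the family, Ecm2, Chadl and Tsku held an EBF core. Such matches describe letters in a window and not bound sites.

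**Figure D1:**
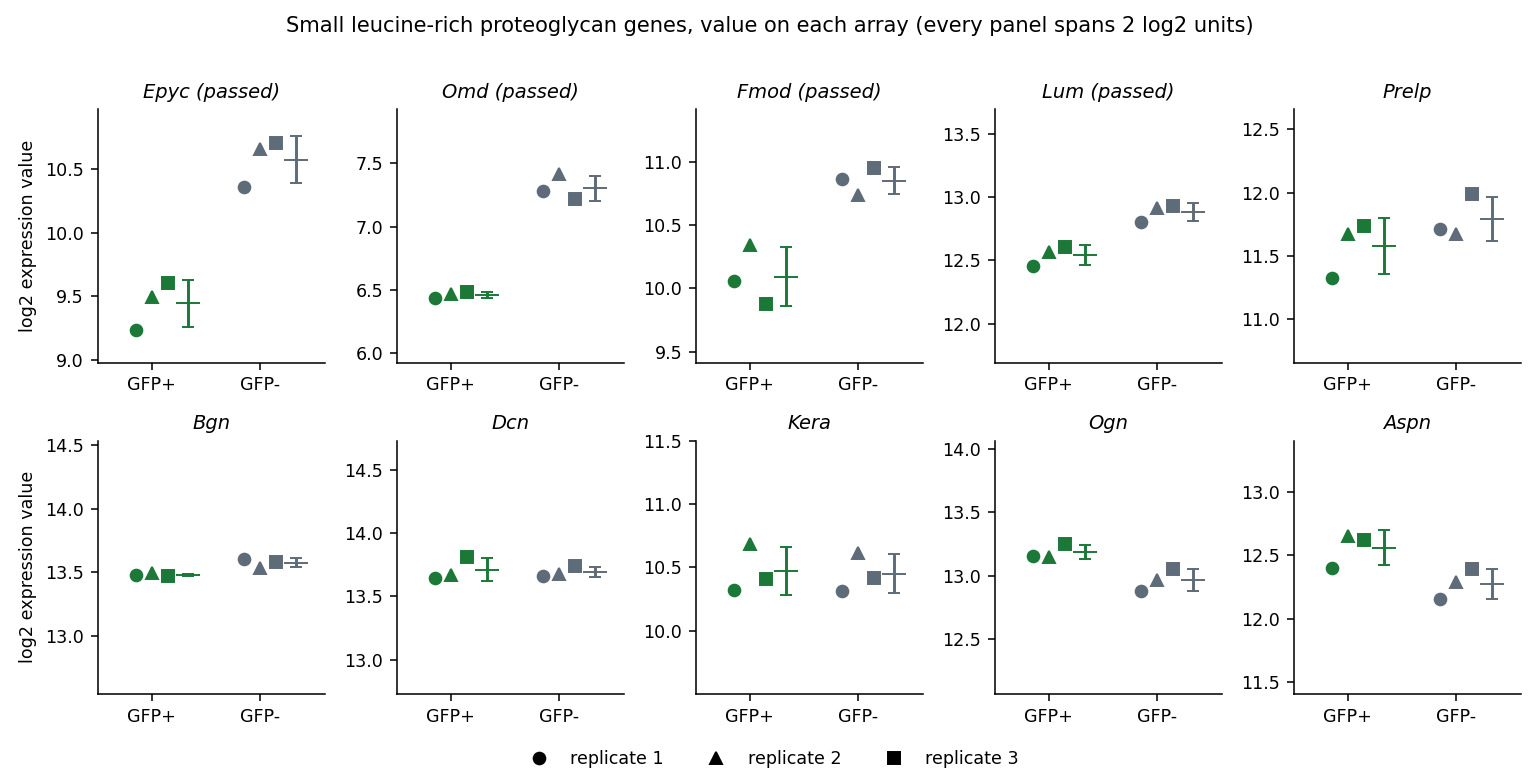
Log2 expression values of the 10 members on each array, with GFP+ arrays in green at the left and GFP- arrays in grey at the right of each panel. Points are single arrays with a symbol for each replicate number, and the bar beside them is the mean with its SD (n = 3). Every panel spans the same width on the log2 axis, so the gap between the groups is widest for Epyc, Omd and Fmod.

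Epyc showed the largest difference among the members. It encodes epiphycan, a class III dermatan sulfate proteoglycan known from epiphyseal growth cartilage. Its log2 values were 9.24, 9.49 and 9.60 on GFP+ replicates 1, 2 and 3, against 10.36, 10.66 and 10.71 on GFP- replicates 1, 2 and 3. Every GFP+ array lay below every GFP- array, and replicate 1 was the lowest in both groups. The means were 9.44 ± 0.19 in GFP+ cells and 10.58 ± 0.19 in GFP- cells (SD, n = 3 each), a 2.20-fold lower level in GFP+ cells. The log2 change was -1.14 with an SE of 0.13 (adjusted p = 0.00428 by limma). The call held without any 1 array, with adjusted p-values up to 0.0271.

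Omd had the smallest p-value of the members. It encodes osteomodulin, also called osteoadherin, a class II protein of mineralized matrix. GFP+ replicates 1, 2 and 3 read 6.44, 6.47 and 6.48, and GFP- replicates 1, 2 and 3 read 7.28, 7.41 and 7.22. The GFP+ arrays were nearly equal and all lay below the GFP- arrays. Means of 6.46 ± 0.023 and 7.30 ± 0.10 in GFP+ and GFP- cells (SD, n = 3 each) gave a 1.79-fold lower level in GFP+ cells (log2 change -0.84 ± 0.06 SE, adjusted p = 0.00116 by limma). The mean of GFP+ arrays lay below 6.78, the 40th percentile of gene means used as a mark of dim genes, and the files hold no detection calls, so this fold may understate the difference. The call held without any 1 array (adjusted p up to 0.0111).

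Fmod, which encodes fibromodulin, a class II protein that binds collagen fibrils and is abundant in tendon and cartilage, was lower as well. Its values were 10.06, 10.34 and 9.88 on GFP+ replicates 1, 2 and 3, against 10.86, 10.74 and 10.95 on GFP- replicates 1, 2 and 3. The groups did not overlap, and replicate 2 was the highest GFP+ and the lowest GFP- array. Fmod was 1.69-fold lower in GFP+ cells (log2 change -0.76 ± 0.12 SE, adjusted p = 0.0166). A further Fmod probe set, at means of 8.20 ± 0.17 in GFP+ cells and 9.02 ± 0.21 in GFP- cells (SD, n = 3 each), gave a like change of -0.81 ± 0.13 SE (adjusted p = 0.0171 with every probe set tested by itself). The call ended without GFP+ replicate 1 (adjusted p = 0.0802), GFP- replicate 1 (0.0616) or GFP- replicate 3 (0.0607).

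Lum fell least of the called members. It encodes lumican, a class II keratan sulfate proteoglycan of cornea, skin and other connective tissue. Values of 12.46, 12.57 and 12.60 were measured on GFP+ replicates 1, 2 and 3, against 12.80, 12.91 and 12.93 on GFP- replicates 1, 2 and 3. The groups did not overlap, and replicate 1 was the lowest in both, as it was for Epyc. The level was 1.27-fold lower in GFP+ cells (log2 change -0.34 ± 0.07 SE, adjusted p = 0.0295). This call ended without any 1 array other than GFP- replicate 1, with adjusted p-values up to 0.103, while the change stayed between -0.38 and -0.30.

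Aspn and Ogn, both of the chromosome 13 cluster, had higher values in GFP+ cells without passing the test. Aspn encodes asporin, a class I protein that is known to bind collagen and TGF-beta. It read 12.40, 12.66 and 12.62 on GFP+ replicates 1, 2 and 3, against 12.15, 12.29 and 12.39 on GFP- replicates 1, 2 and 3. All GFP+ values were above all GFP- values, the closest pair by little (12.40 on GFP+ replicate 1 and 12.39 on GFP- replicate 3). The log2 change was 0.28 ± 0.09 SE (limma adjusted p = 0.165), and it passed with the replicate block (adjusted p = 0.0392).

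Ogn encodes osteoglycin, also called mimecan, a class III protein found in many connective tissues. Its values were 13.16, 13.15 and 13.25 on GFP+ replicates 1, 2 and 3, against 12.88, 12.97 and 13.05 on GFP- replicates 1, 2 and 3. The groups did not overlap. The log2 change of 0.22 ± 0.07 SE did not pass (adjusted p = 0.124, or 0.0623 with the replicate block). Over all 10 members, the arrays of the groups did not overlap for 7, where 22% of all genes showed no overlap.

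Dcn and Bgn, the class I genes of decorin and biglycan, were near the top of the measured range in both groups. Dcn read 13.65, 13.67 and 13.81 on GFP+ replicates 1, 2 and 3, against 13.66, 13.68 and 13.74 on GFP- replicates 1, 2 and 3. The groups overlapped, and the log2 change was 0.01 ± 0.06 SE (adjusted p = 0.943), with a 95% interval from -0.14 to 0.17. Bgn read 13.48, 13.49 and 13.47 on GFP+ replicates 1, 2 and 3, against 13.61, 13.54 and 13.58 on GFP- replicates 1, 2 and 3. Its groups did not overlap but differed by only -0.09 ± 0.05 SE (adjusted p = 0.399, 95% interval -0.21 to 0.02). A further Bgn probe set had means of 10.73 ± 0.061 in GFP+ cells and 10.95 ± 0.12 in GFP- cells (SD, n = 3 each), with a change of -0.22 ± 0.08 SE (adjusted p = 0.182 with every probe set tested by itself). The highest value on any array was 14.32, and whether the response of the brightest probe sets was compressed was not tested.

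Kera and Prelp complete the class II genes. Kera encodes keratocan, best known from the cornea and also used as a tendon gene. It read 10.32, 10.68 and 10.41 on GFP+ replicates 1, 2 and 3, against 10.32, 10.62 and 10.42 on GFP- replicates 1, 2 and 3. The replicates stood in the same order in both groups, replicate 2 highest, and the groups overlapped. The log2 change was 0.02 ± 0.12 SE (adjusted p = 0.960, 95% interval -0.26 to 0.30). Prelp encodes a basic, heparin-binding member of the family that anchors basement membranes to connective tissue. Its values of 11.33, 11.67 and 11.74 on GFP+ replicates 1, 2 and 3, against 11.71, 11.68 and 11.99 on GFP- replicates 1, 2 and 3, overlapped (log2 change -0.21 ± 0.13 SE, adjusted p = 0.495). A further Prelp probe set at a mean of 7.01 ± 0.14 in GFP+ cells and 7.04 ± 0.026 in GFP- cells (SD, n = 3 each) had a change of -0.03 ± 0.08 SE.

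**Figure D2:**
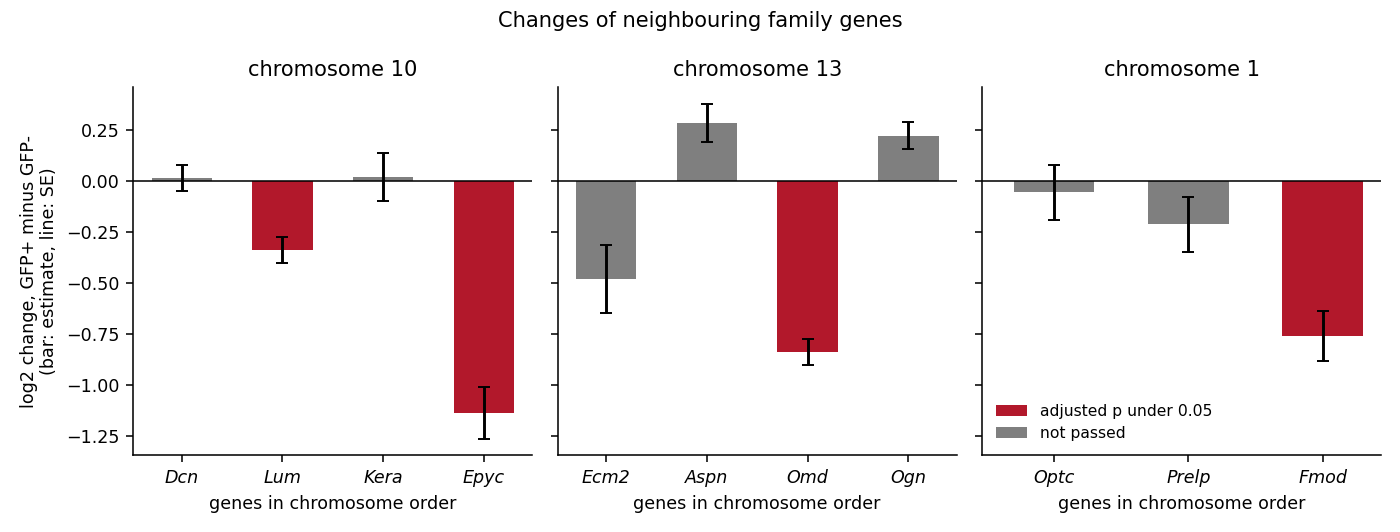
Log2 changes, GFP+ minus GFP-, of the family genes in chromosome order on chromosomes 10, 13 and 1. Bars are limma estimates with their SE, and red bars passed at an adjusted p under 0.05. Lum (-0.34) and Epyc (-1.14) lie beside Dcn (0.01) and Kera (0.02), and Omd (-0.84) lies between Aspn (0.28) and Ogn (0.22).

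The difference between neighbours on each array was compared between the groups with a two-sided exact permutation test, in which 3 arrays against 3 cannot give less than p = 0.1. On chromosome 13 the change of Omd was 1.12 below that of Aspn (-1.12 ± 0.12 SE on the log2 scale, exact permutation p = 0.1), and that of Ogn was 1.06 ± 0.09 SE above that of Omd (exact permutation p = 0.1). On chromosome 10 the change of Epyc was below that of Kera (-1.15 ± 0.14 SE, exact permutation p = 0.1), and that of Lum was below that of Dcn (-0.35 ± 0.04 SE, exact permutation p = 0.1). Fmod and Prelp on chromosome 1 differed by -0.55 ± 0.20 SE (exact permutation p = 0.1), whereas Prelp and Optc did not separate the arrays (-0.16 ± 0.19 SE, exact permutation p = 0.5). Of the 8 pairs, 7 gave the smallest p possible, where 26.1% of all adjacent pairs of measured genes did, and Omd, Aspn, Lum, Kera and Prelp each stand in 2 of the 8. The adjusted value over the 8 pairs was 0.114 for those 7, and with a smallest p of 0.1 no pair could pass a threshold of 0.05. All of those 7 except Aspn with Ecm2 hold Epyc, Lum, Omd or Fmod, so the count partly restates the calls of these genes.

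Called genes were found in more than 1 class. Class I had 0 called genes of 3, class II had Fmod, Omd and Lum of 5, and class III had Epyc of 2. The share called among all genes was 6.49%, and 3 genes are too few for 0 to stand apart from it. The other family genes were measured for 7 of 8 listed, and the expression of Tsku was not analysed here. Of these 7, 1 was lower and 0 higher. That gene was Chad, which encodes chondroadherin, a class IV protein of cartilage that binds chondrocytes. Chad read 8.46, 8.81 and 8.64 on GFP+ replicates 1, 2 and 3, against 10.62, 10.17 and 10.52 on GFP- replicates 1, 2 and 3, with no overlap. It fell 3.49-fold (log2 change -1.80 ± 0.14 SE, limma adjusted p = 0.00116), a larger change than that of any of the 10 members, and the call held without any 1 array.

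Ecm2, the matrix gene beside Aspn, had means of 7.28 ± 0.17 in GFP+ cells and 7.76 ± 0.31 in GFP- cells (SD, n = 3 each). Its change of -0.48 ± 0.17 SE did not pass (adjusted p = 0.184) except with the replicate block (adjusted p = 0.0279). Chadl, a chondroadherin-like cartilage gene, had a change of -0.40 ± 0.12 SE (adjusted p = 0.131). The changes of Podnl1, Podn, Optc and Nyx were -0.23, -0.06, -0.06 and 0.02, with adjusted p-values from 0.272 to 0.926. Nyx and Podnl1 lay below the dim mark in both groups. With these 7, the family held 5 lower and 0 higher of 17 measured genes (29.4%, where 6.49% of all genes passed). With the replicate block the family held 6 lower and 1 higher, where 10% of all genes passed.

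**Figure D3:**
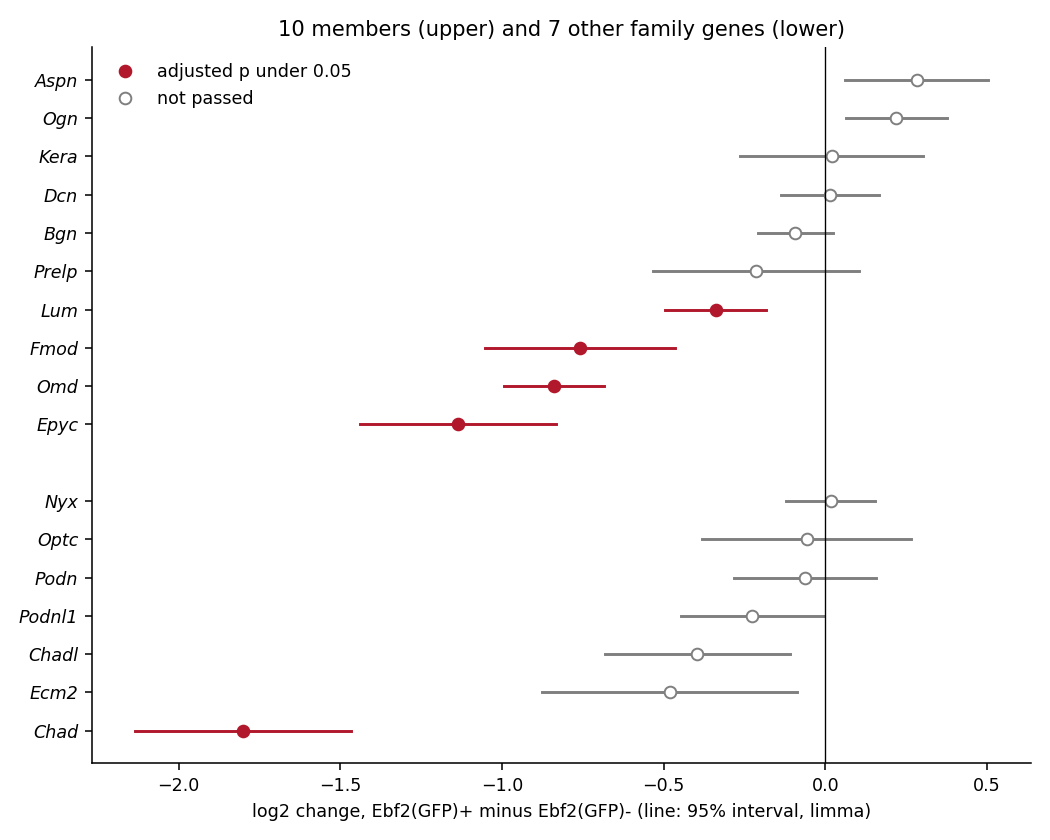
Log2 changes, GFP+ minus GFP-, with limma's 95% intervals for the 10 members (upper block) and 7 other family genes (lower block). Filled red points passed at an adjusted p under 0.05. The interval of Dcn, -0.14 to 0.17, spans 0, and those of Epyc and Chad lie farthest to the left.

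Cartilage genes were lower in the same comparison as the called members Epyc, Omd, Fmod and Lum and the other family gene Chad. All 14 of 14 cartilage markers were lower in GFP+ cells, with a median change of -1.42. Their mean log2 level ran from 8.90 to 9.20 over GFP+ arrays, against 10.37 to 10.61 over GFP- arrays, and 0 of the 14 lay below the dim mark in either group. Without 1 array 9 to 12 of them passed, with 9 left without GFP+ replicate 1, GFP+ replicate 2 or GFP- replicate 2. Macrophage and leukocyte markers were also lower, 16 of 16, with mean levels of 7.02 to 7.97 on GFP+ arrays, against 9.14 to 10.04 on GFP- arrays. Of those 16, 5 lay below the dim mark in GFP+ cells and 0 in GFP- cells. Without 1 array 6 to 15 passed, with 6 left without GFP+ replicate 2. Schwann and neural crest markers were lower for 2 of 4 measured, with mean levels of 7.97 to 8.29 on GFP+ arrays, against 8.71 to 9.10 on GFP- arrays, and 1 passed without any 1 GFP+ replicate. In RNA from sorted populations, fewer cells of a type and less RNA per cell cannot be told apart, and the part of these cell types in the changes of the proteoglycan genes was not tested.

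Of 8 tendon markers, 1 was higher and 1, the member Fmod, was lower. Without Fmod and Kera, which are on that list, 1 of 6 was higher and 0 were lower, with a median change of 0.47. The higher gene was Thbs4, a thrombospondin of tendon and muscle matrix (1.79 ± 0.14 SE, adjusted p = 0.00116). Scx, a tendon transcription factor, and Tnmd, a tendon membrane protein gene, did not pass. The log2 difference of Scx was 0.70 with an SE of 0.29 (adjusted p = 0.279, or 0.0286 with the replicate block). For Tnmd the value was 1.05 with an SE of 0.29 (adjusted p = 0.0974, or 0.0143 with the replicate block). Among markers of osteoblasts, cells known to make osteomodulin, 1 was higher (Phex) and 2 lower (Sp7 and Ibsp) of 6 measured. Fibroblast markers gave 3 lower and 0 higher of 9 (33.3%, where 6.49% of all genes passed). The lower ones were Thy1 (-1.95 ± 0.08 SE), Twist2 (-1.67 ± 0.16 SE) and Twist1 (-0.80 ± 0.06 SE), and the other 6 did not pass. Pdgfra itself, on which both groups were sorted, was at 13.14 ± 0.090 in GFP+ cells and 12.95 ± 0.043 in GFP- cells (SD, n = 3 each, adjusted p = 0.178).

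Among the collagens that these proteoglycans bind, cartilage collagens were lower and the main fibrillar collagens did not pass. Col1a1, Col1a2 and Col3a1, the main fibrillar collagen genes of skin, tendon and other connective tissue, had changes of -0.08, -0.07 and 0.03 (adjusted p from 0.490 to 0.845). Of 15 collagen genes, 3 were lower and 1 higher, with a median change of 0.04. That is 26.7% of the list, where 6.49% of all genes passed. With the replicate block 3 were lower and 2 higher. The lower ones were the cartilage collagens Col2a1 (-1.49 ± 0.13 SE, adjusted p = 0.00153), Col11a2 (-0.92 ± 0.11 SE, adjusted p = 0.00547) and Col11a1 (-0.75 ± 0.09 SE, adjusted p = 0.00626), all of which are on the cartilage list too. Col6a3, a chain of the beaded microfibril collagen that binds decorin and biglycan, was the higher one without the block (0.52 ± 0.07 SE, adjusted p = 0.00776).

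Genes of collagen processing and crosslinking gave 4 lower and 2 higher of 20 measured (30%, where 6.49% of all genes passed), with a median of -0.12. Tll2, a metalloproteinase related to Bmp1, rose 2.46-fold (log2 change 1.30 ± 0.08 SE, adjusted p = 0.000554). Pcolce2, an enhancer of procollagen cleavage, fell (-0.77 ± 0.09 SE, adjusted p = 0.00463), as did Loxl3, a lysyl oxidase gene (-0.35 ± 0.06 SE, adjusted p = 0.0174). The call of Loxl3 ended without any 1 GFP+ replicate (adjusted p up to 0.0749). Without 1 array 2 to 4 genes of the list passed, with 2 left (Tll2 and Pcolce2) without GFP+ replicate 1 or 2, and the calls of Tll1 and Adamts3 ended without any 1 array. With the replicate block Adamts3 did not pass (adjusted p = 0.0692), while Lox (0.0477) and Adamts14 (0.0238) passed as lower. Bmp1, the protease that cleaves the propeptides of biglycan and osteoglycin, had a change of 0.15 ± 0.06 SE (adjusted p = 0.228).

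Of 20 measured genes of linker, chondroitin and dermatan sulfate synthesis, which build the sugar chains of these proteins, 3 were lower and 0 higher, with a median of 0.01. That is 15% of the list, where 6.49% of all genes passed. Xylt1, a xylosyltransferase that starts the chain on the core protein, fell by 0.89 on the log2 scale (-0.89 ± 0.10 SE, adjusted p = 0.00395), while the change of its relative Xylt2 was 0.24 ± 0.07 SE (adjusted p = 0.105). Chst11, a chondroitin 4-O-sulfotransferase, fell (-0.75 ± 0.07 SE, adjusted p = 0.00218). Ust, a uronyl sulfotransferase, was lower too (-0.41 ± 0.06 SE, adjusted p = 0.0123), a call that ended without GFP+ replicate 1 or 2 (adjusted p up to 0.0614). Dse and Dsel, the epimerases that turn chondroitin into dermatan sulfate, had changes of 0.03 and -0.01 (adjusted p = 0.861 and 0.933).

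None of the 11 keratan sulfate genes passed (0 higher and 0 lower by limma), with a median of 0.10. As 6.49% of all genes passed, a list of 11 genes is too short for 0 to stand apart from that share. The smallest p-values were those of the sialyltransferase gene St3gal1 (0.49 ± 0.11 SE, adjusted p = 0.0541), the sulfotransferase gene Chst5 (0.23 ± 0.06 SE, adjusted p = 0.0666) and the galactosyltransferase gene B4galt1 (0.18 ± 0.05 SE, adjusted p = 0.141). St3gal1 passed without GFP- replicate 3 and also when the replicate number was a block (adjusted p = 0.0328).

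Among 21 core proteins of other proteoglycans, 6 were lower and 2 higher (38.1%, where 6.49% of all genes passed), with a median of 0.05. Acan, the large cartilage proteoglycan gene, fell 4.12-fold (log2 change -2.04 ± 0.14 SE, adjusted p = 0.000746). Sdc4, a heparan sulfate proteoglycan of the cell surface, fell 2.61-fold (-1.39 ± 0.06 SE, adjusted p = 0.000276), and Spock3, a secreted testican gene, fell as well (-0.63 ± 0.07 SE, adjusted p = 0.00341). Without 1 array 4 to 6 genes of the list passed, with 4 left without GFP+ replicate 3 or GFP- replicate 2. Of 17 receptors and ligands reported to bind these proteins, 4 were lower and 1 higher (29.4%), with a median of 0.02. Egfr, a receptor bound by decorin, rose (0.74 ± 0.06 SE, adjusted p = 0.00116). Tgfb1, a ligand bound by decorin, biglycan and fibromodulin, fell 2.89-fold (-1.53 ± 0.13 SE, adjusted p = 0.00150). Bmp2 was lower (-0.78 ± 0.12 SE, adjusted p = 0.0128), a call that ended without GFP+ replicate 1 or 3 (adjusted p up to 0.0571). Without 1 array 2 to 5 genes of the list passed, with 2 left (Egfr and Tgfb1) without GFP+ replicate 1.

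**Figure D4:**
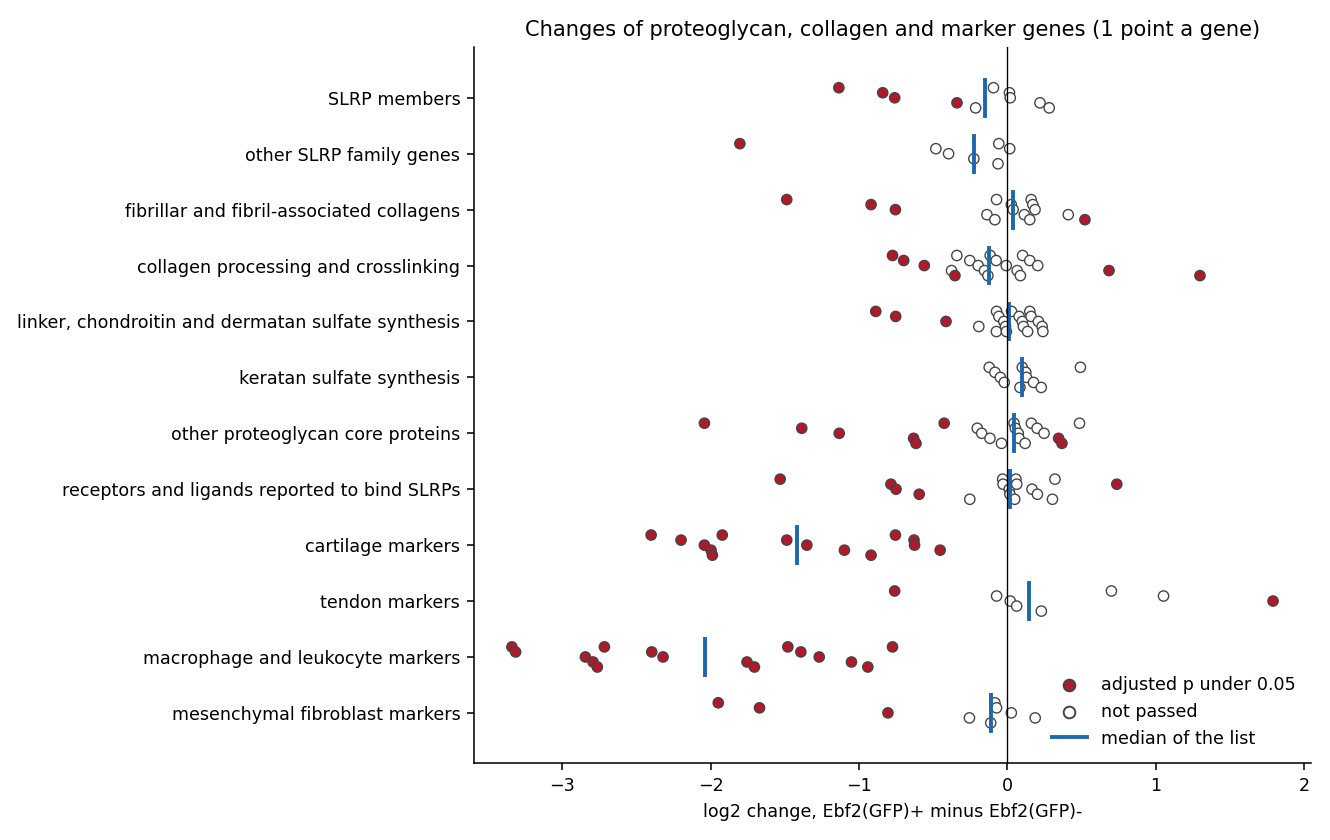
Log2 changes, GFP+ minus GFP-, of single genes in 12 lists, with 1 point a gene, red where it passed at an adjusted p under 0.05, and a blue line at the list's median. All 14 cartilage and all 16 macrophage markers lie left of 0, whereas the 10 proteoglycan genes run from -1.14 to 0.28.

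The genes whose values ran most like those of the called members over the 6 arrays were found by Pearson's r, which here rests largely on the difference between the groups and is given as a description. Omd was most like Twist1 (r = 0.999), a transcription factor gene of mesenchyme that itself fell (-0.80 ± 0.06 SE, adjusted p = 0.000969), and Zfp536 (r = 0.999). Lum was most like Epyc (r = 0.997), a member of its own cluster, and Fxyd5 (r = 0.996). For Epyc these genes were Cxcl16 (r = 0.998) and Osr2 (r = 0.997), and for Fmod they were Gpr65 (r = 0.996) and Gm1968 (r = 0.994).

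Over the series as a whole, Ebf2 followed the sort, with means of 12.00 ± 0.061 in GFP+ cells and 8.65 ± 0.53 in GFP- cells (SD, n = 3 each, adjusted p = 0.000916). Across genes, correlations within a group were 0.995 to 0.997 and correlations between the groups 0.985 to 0.991, and no array stood apart. Endothelial markers gave 1 higher and 1 lower of 7 measured (0 without GFP+ replicate 2 by limma), skeletal muscle markers 1 higher of 9, epithelial markers 1 lower of 5, and the 1 erythroid marker measured did not pass. With the replicate block endothelial markers gave 1 higher and 2 lower, and epithelial markers 1 higher and 1 lower. Whether the replicates were separate litters, pools or sorts is not stated in the labels. The p-values therefore cover the spread among these arrays alone, part of which may be technical, and precision is limited by having 3 arrays a group.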

How the data were processed

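RNA from 3 GFP+ and 3 GFP- cell samples was measured on 1-colour Affymetrix arrays. Per the labels' protocols, embryos were digested and the cells sorted, and biotin-labelled cRNA was made from their total RNA. The authors deposited 1 log2 value per probe set and array, and RMA and limma are the tools in the submitters' processing notes. Their versions, the genome build and any filters: not given in the sources used here. The log2 scale was read from the values (3.414 to 14.32). RMA gives all arrays 1 distribution of probe values, which removes a change common to most genes.

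Of 41345 probe sets, 23521 list 1 gene, 1814 several and 16010 none in the platform table, and the first kind gave 22180 genes. The values carry no build, so positions are printed only for RefSeq promoters of GRCm38.p6. The fit used limma 3.58.1 (lmFit, then eBayes) under R 4.3.3, with no filter and no block, and adjusted by Benjamini-Hochberg over all genes. Changes are GFP+ minus GFP-, and their errors are moderated standard errors. The errors of the differences between neighbours are not moderated and come from the variances of the 3 arrays in each group. The fit was tested on simulated data.

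The labels number replicates alike in both groups. After the group means were taken off, arrays with the same number correlated at 0.314 to 0.519, and others at -0.384 to -0.0243, so the numbers may pair the arrays, which rests on the values and not on the labels. The reported calls come from the fit without the block, and the permutation tests ignore the numbers. The block is an alternative, given beside the counts of members and lists that it changes. The alternatives were this replicate block, quantile normalization, centring, a filter on dim genes, other treatment of several probe sets, eBayes with trend and robust, and leaving out each array. Members and the 18 lists (200 of 216 entries measured) were chosen with earlier results of these data known, and some genes stand on 2 lists. Named are all family genes, the 3 genes of smallest p of each list that is no marker list, and for each called member the 2 most alike genes. Col1a1, Col1a2, Col3a1, Col6a3, Bmp1, Tll1, Adamts3, Adamts14, Lox, Xylt2, Dse, Dsel and the marker genes were named after their values were seen.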

Additional observations from a re-analysis of the deposited data

How the results depend on the processing

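The 4 lower members kept their direction under all alternatives run. Of the 13 settings listed under the processing, Epyc and Omd passed in all, Fmod in 10 and Lum in 8. Under the alternatives that keep all arrays, the count of lower members stayed at 4. Leaving out 1 array gave 2 to 3 passing members, all lower (2 without GFP+ replicate 1 or GFP- replicate 3). With the replicate block 1 member, Aspn, was higher and 2228 genes passed, 1010 of them higher, against 1439 and 588 without it, and the block ended no member's call. Over all genes, 629 to 1067 passed without 1 array, 241 to 441 higher and 388 to 656 lower. These fits hold fewer arrays. The direction of genes near 0 was not settled: Dcn changed sign without GFP+ replicate 3 (-0.038) or GFP- replicate 1 (-0.000793), and Kera without GFP+ replicate 2 (-0.087) or GFP- replicate 1 (-0.047). Without 1 array Dcn ran from -0.038 to 0.046 and Kera from -0.087 to 0.103, and neither passed. Centring each array on the median of the genes tested, chosen after seeing the data, gave 868 higher and 749 lower genes (53.7% higher, against 40.9%) and the same 4 lower members. The median change of the members ran from -0.19 to -0.09 without 1 array. Signal over background is unknown here, which limits Omd most.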
